A study of Mus musculus with 2 samples.

Results

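The interleukin-1 (IL-1) family and inflammasome genes described here are 10 of the 27998 genes counted: the ligands Il1a, Il1b and Il33, the receptor antagonist Il1rn, the receptors and receptor subunits Il1r1, Il1r2, Il1rap and Il1rl1, and the inflammasome genes Nlrp3 and Casp1. Each was measured as raw UMIs, the unique molecular identifiers that count each captured transcript once, and as CPM, the UMIs of the gene per 1000000 UMIs of the same barcodes. The stromal vascular fraction, the non-adipocyte cells of epididymal fat, was taken from C57BL/6 mice (male C57BL/6J in the methods) and run on the 10x Chromium 3' v3 platform. Both groups were wild type and ate their diet for 24 wk from 6 wk of age, 1 group a low fat diet (LFD) and 1 group a high fat diet (HFD). The diets are those of the titles and the treatment label of each sample, while the treatment protocol that both samples share names a low fat diet for each. There was 1 library per diet, and the number of mice behind each is not given in the sources used here. No test between diets was therefore possible, no p-value is given, and diet, animal and library cannot be told apart.

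IL-1α and IL-1β are cytokines that act through the receptor encoded by Il1r1 together with the accessory chain encoded by Il1rap. The antagonist encoded by Il1rn occupies the same receptor without signaling, and the receptor encoded by Il1r2 binds ligand but lacks the signaling domain, so both dampen the response. IL-1β is made as an inactive precursor that caspase-1 cleaves after the sensor NLRP3 assembles an inflammasome, and myeloid cells of obese fat are a known source. IL-33 is a nuclear alarmin of stromal cells, and its receptor ST2, encoded by Il1rl1, is known on regulatory T cells, type 2 innate lymphoid cells and mast cells of visceral fat.

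After barcodes with fewer than 200 genes were left out, the LFD library held 1057 barcodes and 7279955 UMIs and the HFD library 1117 barcodes and 8389196 UMIs, with medians of 6523 and 6598 UMIs per barcode. The libraries shared 0 cell barcodes. Barcodes were sorted by rules on 1 gene or a few summed genes into fibroblasts (at least 10 Dcn UMIs, 375 LFD and 292 HFD), endothelial cells (at least 3 UMIs of Cdh5 and Cldn5, 149 and 207), macrophages (at least 10 UMIs of C1qa, C1qb and C1qc, 229 and 320), dendritic cells (fewer C1q UMIs and at least 1 of Cd209a, 22 and 33) and T cells (at least 2 UMIs of Cd3d, Cd3e and Cd3g, 70 and 21). Fibroblasts with at least 3 UMIs of Pi16, Dpp4 and Sema3c are called Pi16-high (172 and 83) and the others Pi16-low (203 and 209). Macrophages were divided by Cd9 into Cd9- (225 and 204) and Cd9+ (4 and 116). A further 22 LFD and 69 HFD barcodes met no class rule but had at least 3 UMIs of Plac8, Ly6c2 and Ccr2 and are called the monocyte-marker group. Barcodes that met several class rules, 19 and 28, were left out of every class.

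The class names were checked against other markers. Fibroblasts, endothelial cells, macrophages and dendritic cells expressed all 4 of their check genes in both libraries. T cells carried Lck and Cd2 at a summed 596 CPM on LFD and 1321 CPM on HFD, but on LFD they also held the dendritic list given below at 1234 CPM, nearly all of it H2-Ab1 (349 UMIs), and 4 of 4 macrophage genes (Adgre1, Mrc1, Csf1r, Cd68) at 223 CPM, against 21.3 CPM for each list on HFD. Endothelial barcodes also carried the mural genes Rgs5, Kcnj8 and Abcc9 at a summed 1506 CPM on LFD and 1648 CPM on HFD. The same 3 mural genes summed to 409 CPM in the LFD dendritic barcodes (34, 7 and 7 UMIs) and to 4.38 CPM in those on HFD, and their part in the dendritic values below was not tested. The border between dendritic cells and the monocyte-marker group was not sharp. The dendritic list (Flt3, Zbtb46, Itgax, H2-Ab1) summed to 8896 and 9962 CPM in dendritic cells. It summed to 5638 and 6539 CPM in the monocyte-marker group and to 4255 and 3540 CPM in macrophages. Nearly all of the list was H2-Ab1 in each of these, dendritic cells included, so the sums reflect mainly that gene. Flt3 was at 0 in macrophages and held few UMIs in dendritic cells and the monocyte-marker group. Dendritic cells also carried Plac8, Ly6c2 and Ccr2 at a summed 877 CPM on LFD and 1008 CPM on HFD. The part of this overlap in the values below was not tested. No barcode was placed in a neutrophil group in either library. That group needed at least 20 UMIs of S100a8, S100a9 and Csf3r, against 3 UMIs for the other marker groups. It took only barcodes that met no class rule and no other marker group rule.

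All 10 genes were placed on GRCm38 through their Ensembl IDs. Il1r2 (chr1:40074079-40125231), Il1r1 (chr1:40225080-40317257) and Il1rl1 (chr1:40429570-40465415) lie on the plus strand within 391337 bases. Il1a (chr2:129299610-129309972) and Il1b (chr2:129364570-129371139) lie on the minus strand within 71530 bases. Il1rn is at chr2:24336853-24351494, Il1rap at chr16:26581704-26730117, Il33 at chr19:29925114-29960718, Nlrp3 at chr11:59541568-59566956 and Casp1 at chr9:5298517-5307265, each on the plus strand. Il1a, Il1b, Il1r2 and Il1rap overlap transcripts on the opposite strand (Gm14023, Il1bos, Gm16894 and Gm20319), and the strand setting of the counting is not given in the sources used here, so reads of these partners cannot be told apart from theirs. Il1r1 and Il1r2 also overlap transcripts on their own strand (Gm38070 and Gm37347), which a strand setting would not separate.

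Promoters are shown for the ligand genes Il1a and Il1b, the antagonist gene Il1rn, the sensor gene Nlrp3 and the decoy receptor gene Il1r2, the 5 members at least 2-fold higher on HFD over the whole library. The 250 bases before a RefSeq start on GRCm38.p6 are printed 5′ to 3′ on the strand of the gene. They are chr2:129309973-129310222 (minus) for Il1a, chr2:129371140-129371389 (minus) for Il1b, chr2:24336610-24336859 (plus) for the first listed start of Il1rn, chr11:59542436-59542685 (plus) for the first listed start of Nlrp3 and chr1:40085843-40086092 (plus) for Il1r2. Capitals mark matches on either strand to the AP-1 motif TGANTCA, the PU.1 core GAGGAA or the TATA box TATAAA.
Il1a: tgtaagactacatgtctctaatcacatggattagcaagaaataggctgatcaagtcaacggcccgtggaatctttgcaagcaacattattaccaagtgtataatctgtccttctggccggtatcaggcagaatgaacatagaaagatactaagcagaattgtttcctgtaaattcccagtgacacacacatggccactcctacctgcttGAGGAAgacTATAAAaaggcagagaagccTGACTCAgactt
Il1b: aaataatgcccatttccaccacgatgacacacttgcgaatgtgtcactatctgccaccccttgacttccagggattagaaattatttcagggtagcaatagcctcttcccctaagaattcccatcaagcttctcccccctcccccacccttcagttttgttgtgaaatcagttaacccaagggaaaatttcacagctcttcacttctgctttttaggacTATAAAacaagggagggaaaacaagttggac
Il1rn: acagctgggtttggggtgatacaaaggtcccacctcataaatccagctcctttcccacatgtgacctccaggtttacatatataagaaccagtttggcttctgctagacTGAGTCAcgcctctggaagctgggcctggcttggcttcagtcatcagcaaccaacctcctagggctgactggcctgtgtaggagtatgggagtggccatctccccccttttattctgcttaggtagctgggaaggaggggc
Nlrp3: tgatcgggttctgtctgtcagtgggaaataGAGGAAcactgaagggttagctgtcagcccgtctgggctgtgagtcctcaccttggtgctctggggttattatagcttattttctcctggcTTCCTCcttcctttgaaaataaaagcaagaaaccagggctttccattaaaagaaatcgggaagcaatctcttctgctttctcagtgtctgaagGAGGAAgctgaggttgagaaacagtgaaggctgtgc
Il1r2: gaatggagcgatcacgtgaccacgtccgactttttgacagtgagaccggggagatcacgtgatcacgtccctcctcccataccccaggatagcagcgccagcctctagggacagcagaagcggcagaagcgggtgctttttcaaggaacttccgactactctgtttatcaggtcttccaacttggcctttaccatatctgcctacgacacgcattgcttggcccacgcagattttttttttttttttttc

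In these windows Il1a held 1 match each to AP-1, PU.1 and the TATA box, Il1b 1 TATA box, Il1rn 1 AP-1 match and Nlrp3 3 PU.1 matches, none of which overlapped, while Il1r2 and the other 2 starts of Il1rn held none. The NF-kB motif, searched under its name, matched none of the windows shown, 1 other start of Nlrp3 and 1 start of Il1r1. Among the 32851 RefSeq promoters of this length, 6.75% held AP-1, 23.3% PU.1, 12.4% the TATA box and 3.90% NF-kB. A match is a description of the letters and not a binding site, and its absence says nothing about regions outside the window.

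Over all barcodes of a library, the ligand, antagonist, decoy and sensor genes had more UMIs on HFD, while Il1rl1 and Il33 had fewer. Il1b went from 788 UMIs on LFD (108 CPM) to 2139 on HFD (255 CPM), a CPM ratio of 2.36 (2.17 to 2.56). All intervals given are exact 95% intervals and cover counting error only. Il1a went from 10 to 55 UMIs with a ratio of 4.77 (2.41 to 10.5), and Il1rn from 106 to 289 UMIs with a ratio of 2.37 (1.89 to 2.98). The sensor gene Nlrp3 went from 101 to 344 UMIs, a ratio of 2.96 (2.36 to 3.73), and the decoy receptor gene Il1r2 from 15 to 49 UMIs, a ratio of 2.83 (1.56 to 5.44). Il1rl1 went the other way, from 181 to 88 UMIs, with a ratio of 0.422 (0.323 to 0.547), and Il33 from 130 to 95 UMIs, with a ratio of 0.634 (0.482 to 0.833). The intervals of Il1r1 (344 and 375 UMIs), Il1rap (55 and 54 UMIs) and Casp1 (187 and 245 UMIs) held 1. Thus 5 of the 10 genes were at least 2-fold higher on HFD and 1 at least 2-fold lower, beside 2.33% and 4.39% of the 11380 genes with at least 50 UMIs. These calls depended on the setting for 3 genes: under the limits of the methods Il1r1 (2.33) was also past 2-fold higher and Il33 (0.499) past 2-fold lower, and with CPM averaged over barcodes Il1rn (1.84) was within 2-fold. The median ratio was 1.75 for the 10 genes and 0.945 for all of these genes. These whole-library values mix the level within each cell type with the number of its cells, so the classes are taken in turn below.

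**Figure D1:**
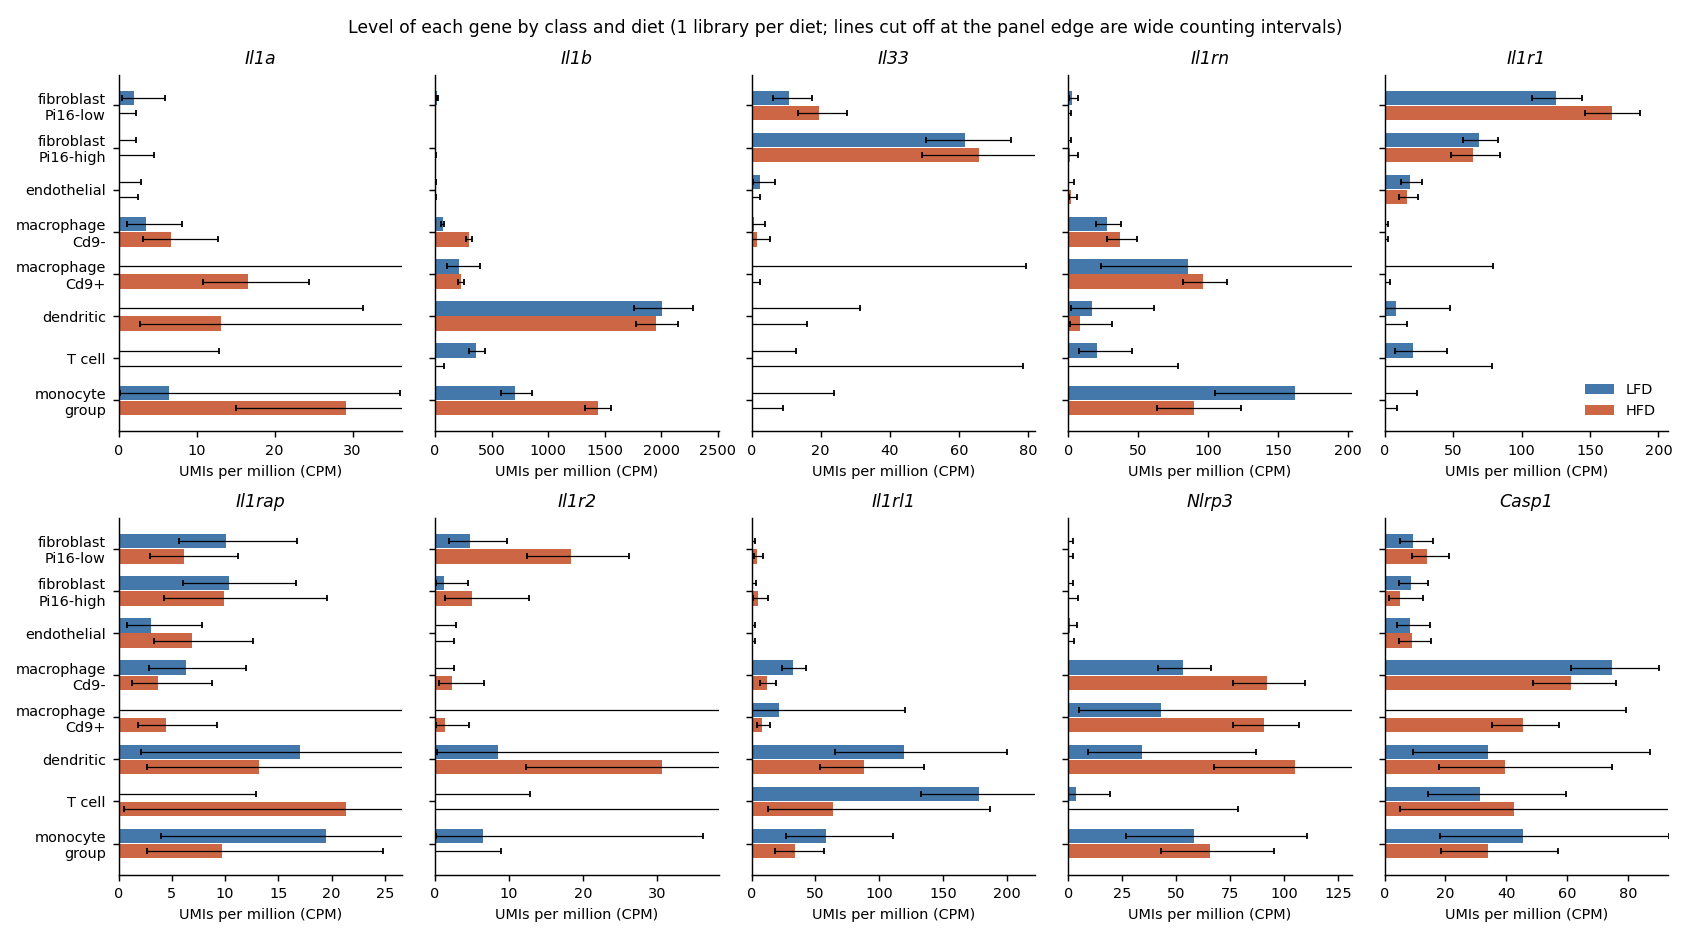
Level of each gene in CPM (x axis, UMIs per 1000000 UMIs of the class) by class (y axis) in the LFD (blue) and HFD (orange) library; lines are exact Poisson 95% intervals and run past the panel edge where a class holds few UMIs. Il1b was highest in dendritic cells (2009 and 1959 CPM), Il33 in Pi16-high fibroblasts (61.8 and 65.7 CPM) and Il1r1 in Pi16-low fibroblasts (125 and 166 CPM).

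Il1r1 and Il33 were carried mostly by fibroblasts and Nlrp3 mostly by macrophages, while Il1b, Il1rn, Il1rl1 and Il1rap were spread over several classes. On LFD and HFD, fibroblasts held 86.6 and 86.1% of Il1r1 UMIs and 90.0 and 89.5% of Il33 UMIs. Macrophages held 77.2 and 77.0% of Nlrp3 UMIs. The antagonist Il1rn was shared between macrophages (41.5 and 69.6%) and the monocyte-marker group (23.6 and 12.8%). Of the ligand Il1b, 29.9% of LFD UMIs came from dendritic cells, 13.8% from the monocyte-marker group, 13.6% from macrophages, 13.2% from T cells, 11.5% from barcodes of several classes and 14.0% from the other barcodes without a class. Macrophages, dendritic cells and the monocyte-marker group together held 57.4% of Il1b UMIs on LFD and 84.0% on HFD, beside 24.1 and 42.2% of the UMIs of all genes. On HFD macrophages held the largest of these shares, 35.4% (33.4 to 37.5%), followed by the monocyte-marker group with 27.7% (25.8 to 29.7%) and dendritic cells with 20.9% (19.2 to 22.7%). Of the UMIs of all genes on HFD, macrophages held 34.6%, the monocyte-marker group 4.91% and dendritic cells 2.72%, so the macrophage share of Il1b was near their size while the others were above theirs. The same myeloid classes held 38.7 and 71.6% of Il1rl1, of which LFD T cells held 28.2%. Il1rap lay in fibroblasts (58.2 and 33.3%), these myeloid classes (25.5 and 35.2%) and endothelial cells (7.27 and 18.5%), which on HFD is near their shares of all UMIs (29.1, 42.2 and 17.4%).

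**Figure D2:**
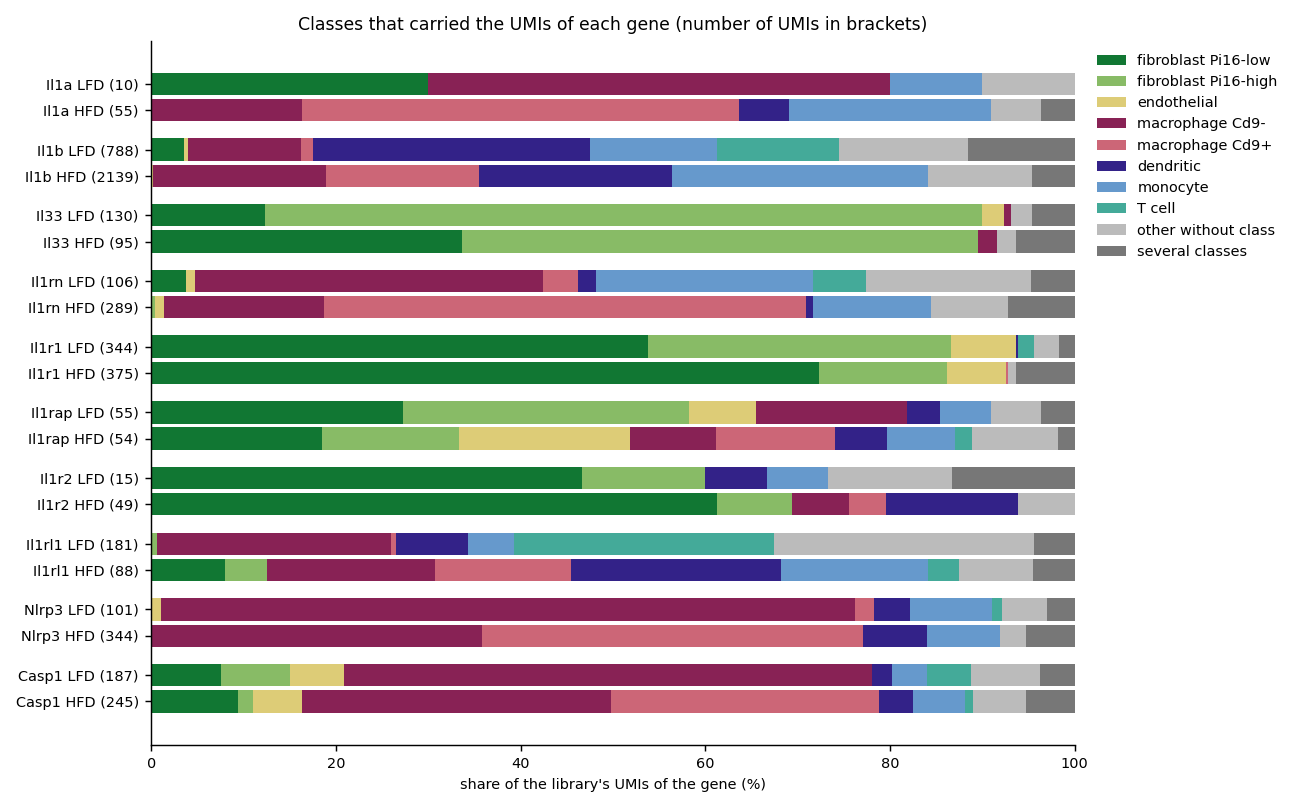
Share of the UMIs of each gene (x axis, percent of the library's UMIs of that gene, whose number is in brackets) carried by each class, with 1 bar per gene and library. Il33 and Il1r1 were carried mostly by fibroblasts, Nlrp3 and Il1rn mostly by macrophages and other myeloid barcodes, and the Cd9+ macrophage segment is wide only on HFD.

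Il1b encodes the ligand whose precursor the inflammasome processes. In dendritic cells 8 of 22 LFD barcodes held 236 Il1b UMIs and 23 of 33 HFD barcodes held 447, which gave 2009 CPM (1761 to 2282) and 1959 CPM (1782 to 2149). The level per class thus hardly differed between the libraries, with a ratio of 0.975 (0.831 to 1.15), beside 2.76% of 942 genes at least 2-fold higher in dendritic cells and 1.38% lower. The share of dendritic barcodes with an Il1b UMI was 36.4% (17.2 to 59.3%) on LFD and 69.7% (51.3 to 84.4%) on HFD, and 38.0 and 56.4% after each barcode was thinned to 1000 UMIs. The 14 LFD dendritic barcodes without Il1b were shallow, with a median of 1182 UMIs against 8130 in the 8 with it.

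Macrophages held more Il1b on HFD. On LFD 20 of 229 macrophage barcodes held 107 Il1b UMIs (72.3 CPM, 59.3 to 87.4), and on HFD 81 of 320 held 757 (261 CPM, 243 to 280). The ratio was 3.61 (2.94 to 4.46), or 1.85 on the log2 scale, and 3.94 on that scale among the barcodes that pass the limits of the methods. Both more barcodes and more UMIs per barcode went with it: the share with a UMI was 8.73% (5.42 to 13.2%) and 25.3% (20.6 to 30.4%), the median among barcodes with Il1b was 2 and 5 UMIs, and 4 and 26 barcodes held at least 10. After thinning to 1000 UMIs the shares were 3.13 and 12.3%, and median depths were similar, 6313 and 6897 UMIs. As background, fibroblasts, which should lack Il1b, had a UMI in 2 of 375 LFD barcodes (0.533%, 1 of them with 27 of the 28 UMIs) and in 1 of 292 HFD barcodes (0.342%), at median depths of 8500 and 7906 UMIs.

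**Figure D3:**
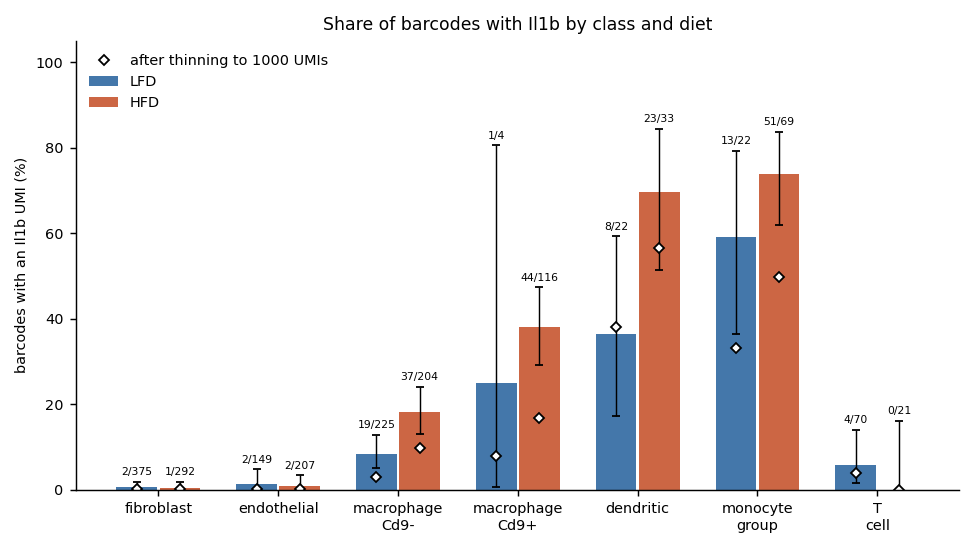
Share of barcodes with at least 1 Il1b UMI (y axis, percent) by class in the LFD (blue) and HFD (orange) library, with exact binomial 95% intervals, numbers of barcodes above the bars and diamonds for the share after thinning to 1000 UMIs. Bars stay near 1% in fibroblasts and endothelial cells and reach 69.7 and 73.9% in HFD dendritic cells and the HFD monocyte-marker group.

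The difference was not confined to Cd9+ cells. Cd9- macrophages alone went from 97 Il1b UMIs in 19 of 225 barcodes (67.7 CPM) to 401 in 37 of 204 (300 CPM), a ratio of 4.43 (3.54 to 5.59), which was 18.2 under the limits of the methods, 6.63 after thinning and 6.75 with CPM averaged over barcodes. In that class 1.38% of 5816 genes were at least 2-fold higher and 2.39% lower. A few barcodes carried much of it on HFD, where the highest held 89 UMIs and the 10 highest held 78.1% of the class total. Cd9+ macrophages, of which LFD had only 4, held 356 UMIs in 44 of 116 HFD barcodes (228 CPM). Within the HFD library their level was 0.760 times (0.657 to 0.878) that of Cd9- macrophages, although a larger share of their barcodes held a UMI, 37.9% against 18.1%. Without the highest barcode of each subset the value was 0.894 (322 and 312 UMIs), outside that interval. Under the limits of the methods it was 0.543 (91 and 266 UMIs). Cd9+ barcodes were deeper, with a median of 8880 against 6461 UMIs, and after thinning the shares were 16.7 and 9.76%.

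The monocyte-marker group lay between macrophages and dendritic cells. Its Il1b UMIs went from 109 in 13 of 22 barcodes (707 CPM) to 593 in 51 of 69 (1439 CPM), a ratio of 2.03 (1.66 to 2.52), beside 4.15% of 1662 genes at least 2-fold higher in it and 1.44% lower. This lies at the edge of 2-fold, and it was 1.68 under the limits of the methods and 1.90 when scaled by the median gene ratio. The group itself was 2.08% of LFD and 6.18% of HFD barcodes. Within a library the order of Il1b levels was dendritic cells, monocyte-marker group, macrophages on both diets, with intervals that did not overlap, and dendritic cells exceeded macrophages 27.8-fold (22.0 to 35.3) on LFD and 7.51-fold (6.67 to 8.45) on HFD. The order was the same under the limits of the methods, but the folds were 47.7 (2626 and 55.1 CPM) and 2.25 (1904 and 846 CPM).

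T cells showed Il1b UMIs in the LFD library, 104 in 4 of 70 barcodes, and none in the 21 HFD barcodes, which allows a level of up to 63.9 CPM against 363 CPM on LFD (at least 5.67-fold lower, at 3 counts over the class). The 4 LFD barcodes had a median of 15258 UMIs and held the myeloid gene Lyz2 at 12745 CPM, against 2649 UMIs and 1160 CPM in the other 66, which held 0 Il1b UMIs. Among the 33 LFD and 8 HFD T cell barcodes that pass the limits of the methods, none held Il1b, so the difference was no longer seen. Whether these barcodes hold RNA of more than 1 cell was not tested.

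The other IL-1 receptor ligand, Il1a, was scarce. Macrophages had 5 UMIs in 2 LFD barcodes and 35 in 22 HFD barcodes (3.38 and 12.1 CPM). On HFD 26 of these 35 lay in 18 of the 116 Cd9+ barcodes, at 2.47 times (1.12 to 6.00) the level of Cd9- macrophages. The limits of the methods leave 4 UMIs in Cd9+ and 7 in Cd9- macrophages, a ratio of 0.907, so the direction turned. The monocyte-marker group held 12 UMIs in 4 HFD barcodes. Il1a shared barcodes with Il1b: on HFD 18 of the 81 macrophage barcodes with Il1b (22.2%) also held Il1a, against 4 of the 239 without (1.67%). Barcodes with Il1b were somewhat deeper, with a median of 7793 against 6628 UMIs, and after thinning the shares were 3.54 and 0.184%. Il1a and Il1b are neighbors on chromosome 2.

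Il33, the alarmin gene, was found mostly in fibroblasts, and over all barcodes its level was higher in the Pi16-high cells. Fibroblasts held 117 Il33 UMIs in 46 of 375 LFD barcodes and 85 in 46 of 292 HFD barcodes (37.6 and 34.8 CPM), a ratio of 0.927 (0.693 to 1.24). Pi16-high fibroblasts were at 61.8 CPM (50.3 to 75.1) on LFD and 65.7 CPM (49.2 to 85.9) on HFD, 5.72-fold (3.36 to 10.4) and 3.36-fold (2.12 to 5.38) above Pi16-low fibroblasts. On HFD 1 barcode held 15 of the 53 Pi16-high UMIs, and without the highest barcode of each subset the fold was 2.85. Under the limits of the methods it was 2.54 on LFD (8 and 6 UMIs) and 0.376 on HFD (1 and 11 UMIs), so the HFD direction turned. Pi16-low fibroblasts went from 16 UMIs in 9 barcodes to 32 in 24 (10.8 and 19.6 CPM), with intervals that overlap. Pi16-high cells were 16.3% of LFD and 7.43% of HFD barcodes. The diet values within fibroblasts also depended on the barcodes kept, since the limits of the methods leave Pi16-high cells at 63.3 CPM on LFD and 9.70 CPM on HFD and give a ratio of 0.595 in all fibroblasts. Pi16-high fibroblasts also carried the mesothelial genes Upk3b, Msln and Krt19, 3 of 3 in both libraries, at a summed 950 CPM on LFD and 889 CPM on HFD against 58.7 and 14.1 CPM in Pi16-low fibroblasts, and their part in the Il33 values was not tested. Macrophages, dendritic cells, T cells and the monocyte-marker group together held 1 Il33 UMI on LFD and 2 on HFD, all in macrophages.

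Il1rn encodes the receptor antagonist. Macrophages held 44 Il1rn UMIs in 14 LFD barcodes and 201 in 67 HFD barcodes (29.7 and 69.3 CPM), a ratio of 2.33 (1.67 to 3.31), beside 5.41% of 7137 genes at least 2-fold higher in macrophages and 5.94% lower. Over all barcodes the Cd9 subsets differed. Cd9- macrophages had 40 and 50 UMIs (27.9 and 37.4 CPM), a ratio of 1.34 (0.866 to 2.08), while the 116 Cd9+ macrophages on HFD held 151 UMIs in 43 barcodes (96.6 CPM), 2.58-fold (1.87 to 3.63) above the Cd9- macrophages of the same library. This direction turned under the limits of the methods, with 11 UMIs in Cd9+ (67.4 CPM) and 33 in Cd9- macrophages (127 CPM), a ratio of 0.529. The monocyte-marker group went the other way, from 25 UMIs in 4 barcodes (162 CPM) to 37 in 12 (89.8 CPM), a ratio of 0.553 (0.324 to 0.959). Its share of barcodes with a UMI was 18.2 and 17.4%, so the LFD level rested on 3 barcodes with at least 5 UMIs. Its direction also turned under the limits of the methods, which leave 0 UMIs on LFD and 4 on HFD (20.9 CPM). Dendritic cells, the class with the highest Il1b, held 2 Il1rn UMIs in 1 barcode in each library.

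The antagonist was also set against the ligand within the same barcodes. Cd9- macrophages had 41.2 Il1rn UMIs per 100 Il1b UMIs (27.8 to 60.2) on LFD and 12.5 (9.10 to 16.8) on HFD. The monocyte-marker group went from 22.9 (14.2 to 35.7) to 6.24 (4.35 to 8.70). Cd9+ macrophages on HFD had 42.4 (34.8 to 51.5), and dendritic cells 0.847 on LFD (2 and 236 UMIs) and 0.447 on HFD (2 and 447 UMIs). Over the whole library the values were 13.5 (10.9 to 16.5) and 13.5 (11.9 to 15.3). These values depended on the barcodes kept. Under the limits of the methods HFD Cd9+ and Cd9- macrophages were at 12.1 (11 and 91 UMIs) and 12.4 (33 and 266 UMIs), so they no longer stood apart, and LFD Cd9- macrophages were at 120 (18 and 15 UMIs). The monocyte-marker group was then at 0 on LFD (0 and 55 UMIs) and 1.67 on HFD (4 and 240 UMIs), turned in direction, and the whole library at 5.94 and 5.26. Each UMI marks 1 transcript end, so transcript length does not enter, but genes may differ in capture and the value compares classes rather than the amounts of the 2 proteins.

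**Figure D4:**
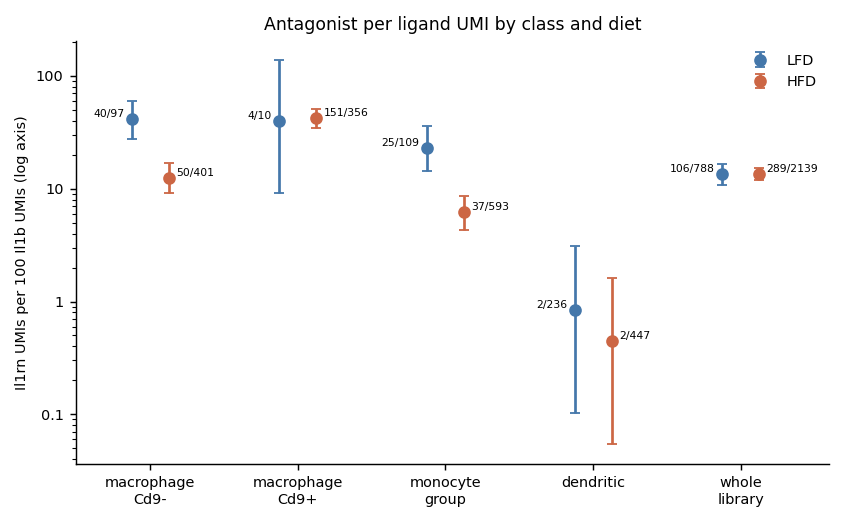
Il1rn UMIs per 100 Il1b UMIs (y axis, log scale) by class in the LFD (blue) and HFD (orange) library, with exact conditional binomial 95% intervals and the UMIs of both genes beside each point. The Cd9- macrophages and the monocyte-marker group are lower on HFD (12.5 and 6.24) than on LFD (41.2 and 22.9), and the whole library is at 13.5 on both diets. Under the limits of the methods, not drawn, HFD Cd9+ and Cd9- macrophages are at 12.1 and 12.4.

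Il1b and Il1rn were often found in the same macrophages. Among macrophage barcodes with Il1b, 10 of 20 on LFD and 39 of 81 on HFD also held Il1rn (50% and 48.1%), against 1.91 and 11.7% of those without Il1b. After thinning the shares were 16.5 and 9.70% with Il1b and 0.269 and 2.82% without. On HFD the pairing was seen in both subsets, with Il1rn in 13 of 37 Cd9- and 26 of 44 Cd9+ barcodes that held Il1b.

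Il1r1, the signaling receptor gene, was carried mostly by fibroblasts among the classes. It had 298 UMIs in 186 of 375 LFD fibroblasts and 323 in 161 of 292 HFD fibroblasts (95.6 and 132 CPM), a ratio of 1.38 (1.18 to 1.62). None of the 4 members with at least 50 UMIs in fibroblasts was 2-fold higher or lower, beside 1.26 and 2.27% of 8330 genes. Of these, Il1r1 (2.49, 73.5 and 183 CPM) and Casp1 (3.82, 5.44 and 20.8 CPM) were past 2-fold higher under the limits of the methods. Pi16-low fibroblasts were at 125 CPM (108 to 144) and 166 CPM (147 to 187), a ratio of 1.33 (1.10 to 1.61). Pi16-high fibroblasts were lower in both libraries, at 69.2 CPM (57.0 to 83.1) and 64.5 CPM (48.1 to 84.5), a diet ratio of 0.932 (0.658 to 1.31). Over all barcodes Il1r1 and Il33 thus had opposite orders in the fibroblast subsets. Endothelial cells had 24 Il1r1 UMIs in each library (18.4 and 16.5 CPM), 5.21-fold (3.43 to 8.26) and 8.03-fold (5.30 to 12.7) below fibroblasts. Barcodes within the limits of the methods gave 12.5-fold on LFD (27 and 1 UMIs), and on HFD 97 UMIs in fibroblasts and 0 in endothelial cells. In macrophages it was nearly absent: 0 UMIs in 229 LFD barcodes, which allows up to 2.03 CPM, and 1 UMI in 320 HFD barcodes. The diet ratios of Il1r1 were larger under the limits of the methods, at 2.33 over the whole library, 2.53 in Pi16-low and 1.84 in Pi16-high fibroblasts.

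The accessory chain gene Il1rap was low in every class. Fibroblasts held 32 and 18 UMIs (10.3 and 7.37 CPM), a ratio of 0.718 (0.379 to 1.32), macrophages 9 and 12, and endothelial cells 4 and 10. Only 14 of 375 LFD and 9 of 292 HFD fibroblasts held a UMI of both Il1r1 and Il1rap, a share that such low counts limit. The decoy receptor gene Il1r2 was also found mostly in fibroblasts, with 9 UMIs in 8 LFD barcodes and 34 in 29 HFD barcodes (2.89 and 13.9 CPM). At 43 UMIs in all it lay below the minimum of 50 for a reported ratio; its counting ratio was 4.82 (2.26 to 11.4). Of these UMIs, 7 and 30 lay in Pi16-low fibroblasts. Il1r2 was found beside Il1r1 in 7 of the 8 LFD and 21 of the 29 HFD fibroblast barcodes that held it. Il1r1 itself was found in 186 of 375 LFD and 161 of 292 HFD fibroblasts. Those barcodes were deeper, with medians of 9228 and 8401 UMIs against 7821 and 7287 in the others. After thinning, Il1r2 was in 0.400% of LFD fibroblasts with Il1r1 and 0.0665% without, and on HFD in 1.74 and 1.07%. Dendritic cells had 1 and 7 Il1r2 UMIs, 4 of the 7 in 1 barcode.

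Il1rl1 encodes the IL-33 receptor ST2 and was spread over lymphoid and myeloid barcodes. In the LFD library T cells held 51 of its 181 UMIs, in 11 of 70 barcodes (178 CPM, 132 to 234), of which 7 also held Gata3 and 4 held Foxp3, the regulatory T cell factor. On HFD 2 of 21 T cells held 3 UMIs (63.9 CPM), a ratio of 0.359 (0.0718 to 1.11). Under the gene and mitochondrial limits of the methods, which leave 8 and 2 UMIs, the direction turned (log2 ratio 0.42). In T cells 2.32% of 947 genes were at least 2-fold higher on HFD and 12.7% lower, so a lower ratio is common in this small class. Of the 2 T cell genes with enough UMIs, Il1b and Il1rl1, both were lower. A group of 11 LFD barcodes outside the classes, with Gata3, Rora and Il7r as known for type 2 innate lymphoid cells, held 21 Il1rl1 UMIs in 6 barcodes (750 CPM). The 2 HFD barcodes that met this rule held 0, but had no Gata3 or Rora UMI and carried the macrophage genes Cd68, Adgre1 and Csf1r. A single mast cell barcode in each library held 7 and 2 Il1rl1 UMIs.

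Macrophages also held Il1rl1, 47 UMIs in 36 LFD barcodes and 29 in 28 HFD barcodes (31.8 and 9.99 CPM), a ratio of 0.315 (0.191 to 0.510). Cd9- macrophages alone gave 46 and 16 UMIs, a ratio of 0.373 (0.197 to 0.671). Most of these barcodes had 1 UMI. As background, fibroblasts had an Il1rl1 UMI in 1 of 375 LFD barcodes (0.267%) and 7 of 292 HFD barcodes (2.40%), and endothelial cells in 0 of 149 and 0 of 207, which allows up to 2.01 and 1.45%, at median depths of 6486 and 5804 UMIs. The macrophage shares were 15.7 and 8.75%. Dendritic cells were at 119 CPM (14 UMIs) and 87.7 CPM (20 UMIs), 3.75-fold (1.91 to 6.93) and 8.77-fold (4.70 to 16.0) above macrophages. These folds were 2.50 (6 and 8 UMIs) and 2.49 (6 and 7 UMIs) under the limits of the methods. On HFD the fibroblasts held 11 UMIs.

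Nlrp3, the inflammasome sensor gene, was confined to myeloid barcodes among the classes, apart from 1 UMI each in endothelial and T cells on LFD. Macrophages held 78 UMIs in 47 of 229 LFD barcodes and 265 in 112 of 320 HFD barcodes (52.7 and 91.3 CPM), a ratio of 1.73 (1.34 to 2.26). The ratio was also 1.73 (1.29 to 2.34) in Cd9- macrophages, and on HFD Cd9+ and Cd9- macrophages were at 90.8 CPM (76.5 to 107) and 91.9 CPM (76.4 to 110), with overlapping intervals. Within the limits of the methods these were 251 and 174 CPM. Fibroblasts held 0 UMIs in both libraries, which allows up to 0.963 CPM on LFD and 1.23 CPM on HFD. Dendritic cells had 4 and 24 UMIs. The whole-library ratio of 2.96 was larger than that within macrophages, which were 21.7% of LFD and 28.6% of HFD barcodes and held 1479836 and 2901549 UMIs.

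Nlrp3 was more frequent in macrophages with Il1b. It was found in 55.0% of LFD and 59.3% of HFD macrophage barcodes with Il1b and in 17.2 and 26.8% of those without, and after thinning in 15.0 and 14.8% against 3.73 and 6.73%. On HFD this lay mainly in Cd9- macrophages, with 56.8 against 16.8%, and 17.6 against 5.04% after thinning. In HFD Cd9+ macrophages the Nlrp3 shares were closer, 61.4 against 50%, and 12.4 against 10.6% after thinning. Casp1, the protease gene, was spread more evenly. Macrophages held 107 and 153 Casp1 UMIs (72.3 and 52.7 CPM), a ratio of 0.729 (0.566 to 0.943), and it was found in 4 of 20 barcodes with Il1b and 32.5% of those without on LFD, and in 34.6 and 32.2% on HFD. After thinning these shares were 3.42 and 7.15% on LFD and 4.37 and 5.92% on HFD, lower with Il1b in both libraries. Fibroblasts held 28 and 27 UMIs (8.99 and 11.1 CPM), 8.05-fold (5.27 to 12.7) and 4.77-fold (3.15 to 7.47) below macrophages, or 17.5-fold and 2.39-fold under the limits of the methods. In Cd9- macrophages alone the Casp1 ratio was 0.821 (0.608 to 1.10), an interval that held 1. Of the 5 members with at least 50 UMIs in macrophages, Il1b and Il1rn were at least 2-fold higher on HFD, Il1rl1 at least 2-fold lower, and Nlrp3 and Casp1 within 2-fold, beside 5.41% of 7137 genes higher and 5.94% lower. Il1rn (1.58) and Il1rl1 (0.565) were within 2-fold under the limits of the methods, and Nlrp3 (2.64) was past it.

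**Figure D5:**
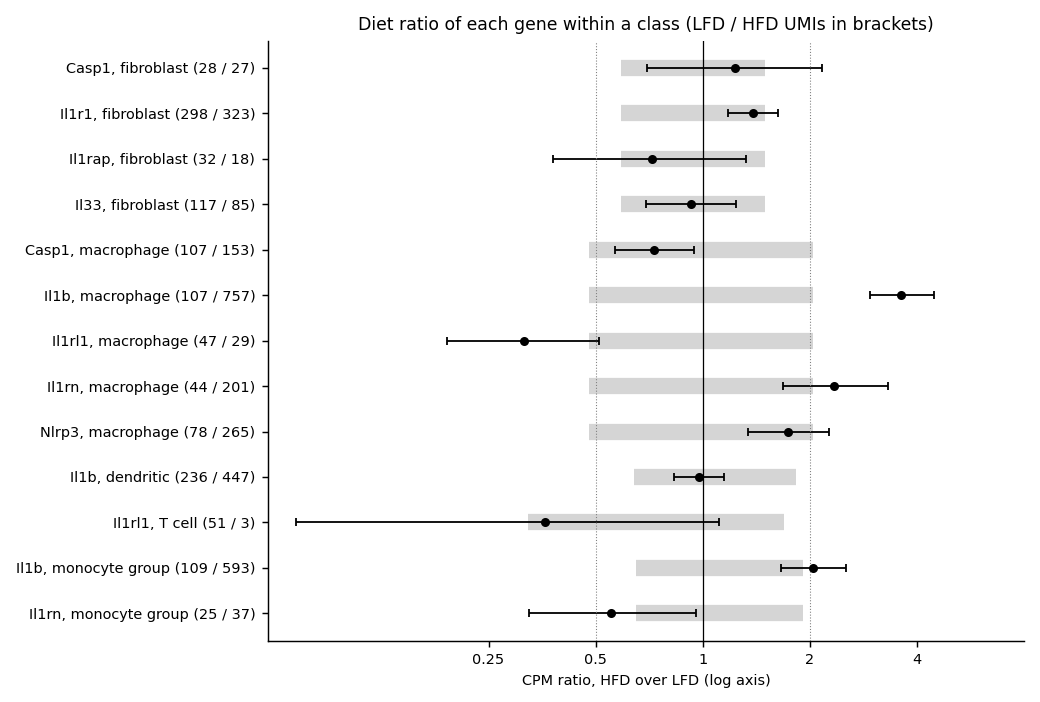
CPM ratio of HFD over LFD (x axis, log scale) for members with at least 50 UMIs in a class, with exact conditional binomial 95% intervals; LFD and HFD UMIs are in brackets, and grey bars span the 5th to 95th percentile of the ratios of all genes with at least 50 UMIs in that class. Il1b in macrophages (3.61) lies above its grey bar and Il1rl1 in macrophages (0.315) below it; Il1b in T cells (104 and 0 UMIs) has a ratio of 0 and cannot be drawn on this scale.

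The rest of the pathway was read from a list of 52 genes of ligands, receptors, adaptors, inflammasome parts, NF-kB factors and induced targets, chosen with earlier results of these data known, of which Il36rn was not matched. Over the whole library 42 had at least 50 UMIs, and 2 were at least 2-fold higher on HFD and 4 lower, beside 2.33 and 4.39% of all genes, with a median ratio of 0.943 against 0.945. In macrophages 1 of 32 was higher and 3 were lower, beside 5.41 and 5.94% of all genes, with a median of 0.948 against 0.991. In fibroblasts 0 of 31 were higher and 1 was lower, beside 1.26 and 2.27%, with a median of 0.892 against 0.978. The 9 adaptors and kinases measured in macrophages, among them Myd88 and Irak1, and the 8 NF-kB and feedback genes were all within 2-fold.

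The genes past 2-fold were few and did not share a direction. In macrophages the chemokine gene Cxcl1 went from 183 to 1659 UMIs (124 and 572 CPM), a ratio of 4.62 (3.97 to 5.42), and in Cd9- macrophages alone the ratio was 2.97 (2.49 to 3.56). The cytokine gene Il6 went from 98 to 42 UMIs, a ratio of 0.219 (0.149 to 0.317), the caspase gene Casp4 from 259 to 238, a ratio of 0.469 (0.391 to 0.561), and Txnip, whose product binds thioredoxin, from 929 to 605, a ratio of 0.332 (0.299 to 0.368). Il6 was within 2-fold under the limits of the methods (0.599, 14 and 13 UMIs, and 0.790 in Cd9- macrophages), where Cxcl1 was at 13.4. In Cd9- macrophages Txnip (0.494) and Il6 (0.374) were again lower and Ptgs2, the inducible cyclooxygenase gene, was higher (2.22), beside 2.39% of all genes lower and 1.38% higher. Under the limits of the methods Cd9- macrophages had ratios of 27.7 for Ptgs2 (1 and 27 UMIs), 11.9 for Cxcl1 (20 and 231 UMIs) and 0.251 for Txnip. Ptgs2 was lower in the monocyte-marker group, with 39 UMIs in each library and a ratio of 0.374 (0.234 to 0.598), the only 1 of 10 list genes there past 2-fold, beside 4.15% of all genes higher and 1.44% lower, and under the limits of the methods its direction turned (2 and 11 UMIs, a ratio of 2.12). Pycard, the inflammasome adaptor gene, named here after its values were seen, stayed within 2-fold but was above 1 in macrophages, at 180 and 290 CPM, a ratio of 1.61 (1.40 to 1.86).

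In fibroblasts the acute phase gene Saa3 went from 61 UMIs to 2, a ratio of 0.0418 (0.00496 to 0.158), all 61 of them in Pi16-low cells. Without the highest barcode 36 UMIs were left on LFD and 0 on HFD. Pi16-low fibroblasts also had less of the chemokine gene Cxcl2 (100 and 30 UMIs, a ratio of 0.272), the second of 28 list genes past 2-fold there, beside 1.55% of 6448 genes higher and 2.11% lower. That value rested on 1 LFD barcode, since without the highest barcode of each library 21 and 22 UMIs were left, a ratio of 0.938. In Pi16-high fibroblasts Myd88 (0.479), Txnip (0.371) and Tnfaip3 (0.372) were lower, 3 of 28 list genes, beside 0.966% of 5901 genes higher and 1.56% lower, and Myd88 was within 2-fold under the limits of the methods (0.736). In endothelial cells Cxcl2 was higher (19 and 53 UMIs, a ratio of 2.50, 1.46 to 4.48), 1 of 21 list genes, beside 0.818% of 6603 genes higher and 0.803% lower. Under the limits of the methods that ratio was 14.2, from 1 and 18 UMIs. T cells had lower Cxcl2 (524 and 7 UMIs) and Nfkbiz (87 and 5 UMIs), beside 12.7% of all genes lower. With the limits of the methods Cxcl2 there turned in direction (17 and 4 UMIs, a ratio of 1.26) and Nfkbiz was within 2-fold (0.669). The dendritic and macrophage lists were also lower in HFD T cells, as given above (1234 and 223 CPM on LFD, 21.3 CPM each on HFD), and their part in these values was not tested. Over the whole library Cxcl2 (2.46) and the pyrin gene Mefv (4.08) were higher, and the IL-18 receptor genes Il18r1 (0.282) and Il18rap (0.458), Saa3 (0.242) and Lcn2 (0.413) lower, of which Il18rap was at 0.502 under the limits of the methods.

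The genes whose levels over 7 classes and subclasses in both libraries were most like those of each member are given as a description, from Pearson's r of log2(CPM + 10) over 14 points, which share libraries and depth, among 11031 genes. For Il1b they were Tnip3 (0.97), Ear2 and Pilra. For Il1rn they were Gas2l3 (0.98), Cd300lb and Clec4d, and for Nlrp3 Clec4a3 (0.97), Cd300a and Gdi2. The fibroblast pattern of Il1r1 was closest to Sox5 (0.97), Kdelr3 and Plod2, and that of Il33 to Cdh11 (0.99), Sct and Ildr2. Il1rl1 was closest to Ltb4r1 (0.95), Fnbp1 and Dennd4a, and Casp1 to Ttc7 (0.91), Ms4a6c and Inpp5d. The scarce genes had lower values: Il1a with Pkib (0.89), Arl11 and Atp6v1g1, Il1rap with Cars2 (0.89), Asb1 and Zfp335, and Il1r2 with Ltv1 (0.78), Hmgcs1 and Wnt11.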

How the data were processed

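Single-cell RNA was measured in 1 LFD and 1 HFD library of the epididymal stromal vascular fraction. The authors made raw UMI counts per gene and barcode with Cell Ranger on mm10 and deposited them without normalization. The methods and the file header name different releases of Cell Ranger (3.0.2 in the header). Counts on the barcodes called as cells were summed by class after barcodes under 200 genes were left out. The limits of the methods, 200 to 2500 genes and under 5% mitochondrial UMIs, leave 294 LFD and 352 HFD barcodes and served as an alternative, because they remove most deep barcodes. Deposited depth was 7356278 and 8412325 UMIs in 1113 and 1144 barcodes. Low depth limits genes with few UMIs most.

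CPM carry exact Poisson 95% intervals, shares exact (Clopper-Pearson) binomial intervals, and ratios exact conditional binomial intervals. All cover counting error only. A ratio needed 50 UMIs over both libraries and 20 barcodes in each. The barcode minimum was set once the values were known, since Cd9+ macrophages had 4 LFD barcodes. A fold of 2 counted as past the threshold, by size alone. A count of 0 allows up to 3 counts. Thinning to 1000 UMIs gives the expected share, without shallower barcodes.

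Classes follow the marker rules given with the results. Doublets were called by Scrublet at an expected rate of 1% (21 and 26 barcodes) and left out only in an alternative. Of the 27998 gene IDs, 27645 were in GENCODE M21. Named genes were the 10 members, list genes past 2-fold and the 3 genes most like each member. The members, classes and lists were chosen with earlier results of these data known. Ratio intervals were tested on class sums simulated as Poisson counts, the model that the intervals assume. That test leaves out the clustering of UMIs in few barcodes. The alternatives tried were the limits of the methods, barcodes counted in every class they meet, doubled class thresholds, CPM averaged over barcodes, thinning, Scrublet, scaling by the median gene ratio, leaving out the highest barcode, and a minimum of 20 UMIs. Ratios between classes and of Il1rn to Il1b were also recomputed under the limits of the methods, and the former without the highest barcodes. Ratios of list genes were recomputed in these same ways. These additions were chosen after seeing the data. Python 3.11.15 was used, with scanpy 1.11.5 for Scrublet, scipy 1.17.1 for intervals, pandas 2.3.3 with numpy 2.4.6 for sums, and matplotlib 3.10.9 for plots.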

Additional observations from a re-analysis of the deposited data

Results flagged for a closer look

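Over all barcodes the Il1b values lay on opposite sides of 1 between classes: its HFD over LFD CPM ratio was 3.61 in macrophages and 2.03 in the monocyte-marker group, but 0 in T cells, where all 104 LFD UMIs lay in 4 barcodes that held the myeloid gene Lyz2 at 12745 CPM. Under the limits of the methods T cells held 0 Il1b UMIs in both libraries, so this difference in direction was not seen there. Il1rn also differed in direction over all barcodes, with a ratio of 2.33 in macrophages and 0.553 in the monocyte-marker group, where 4 LFD barcodes held all 25 UMIs. With the limits of the methods that group had 0 Il1rn UMIs on LFD and 4 on HFD (20.9 CPM), and the macrophage ratio was 1.58, so the directions no longer differed. With 1 library per diet these differences between classes were not tested.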

How the results depend on the processing

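Diet ratios of the 10 genes were recomputed under 8 other settings, and 192 of 220 values stayed inside the counting interval of the reported ratio. Values below are log2 ratios of HFD over LFD. Of the 28 values recomputed under the limits of the methods, 11 stayed inside the interval, 16 lay outside and 1 was reversed. Among these 28, 14 kept their side of 2-fold. These limits, which keep 294 and 352 barcodes, moved most. Under them Il1b was 3.94 in macrophages, 4.19 in Cd9- macrophages and -0.46 in dendritic cells, Il1rn in macrophages 0.66, Nlrp3 in macrophages 1.40, and Casp1 1.93 in fibroblasts, -0.94 in macrophages, -0.75 in Cd9- macrophages and -0.41 over the library. Il1r1 was 1.32 in fibroblasts, 1.34 in Pi16-low cells, 0.88 in Pi16-high cells and 1.22 over the library, so its whole-library value, close to 0 otherwise, was past 2-fold. Il33 in fibroblasts was -0.75, and Il1rl1 -0.82 in macrophages, -2.15 over the library and, turned in direction, 0.42 in T cells, from 8 UMIs on LFD and 2 on HFD. The cause was not tested.

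Thinning gave Il1b 2.76 in macrophages and 2.73 in Cd9- macrophages. Averaging CPM over barcodes gave 2.79, 2.75 and 0.50 in macrophages, Cd9- macrophages and dendritic cells, 1.96 over the library, and 0.88 for Il1rn over the library. Il1b in dendritic cells was 0.39 when barcodes counted in every class and 0.23 without the highest barcode of each library. In T cells Il1b was -1.85 with doubled thresholds and -1.50 without the highest barcode, both against 3 HFD counts, and had no value under thinning or averaging, since HFD held 0 UMIs. Under the limits of the methods T cells held no Il1b in either library and the LFD monocyte-marker group no Il1rn. With a minimum of 20 UMIs, the share of genes past 2-fold in either direction was 6.21% in fibroblasts, 7.10% in Pi16-low and 6.17% in Pi16-high cells, 4.34% in endothelial cells, 6.67% in Cd9- macrophages, 11.8% in dendritic cells and 12.0% in the monocyte-marker group, against 3.53, 3.66, 2.52, 1.62, 3.77, 4.14 and 5.60%. Leaving out Scrublet-marked barcodes or scaling by the median gene ratio moved none of the 32 ratios of these genes outside its interval. Differences between classes in 1 library were recomputed after the data were seen. Under the limits of the methods 6 of 23 turned, with HFD log2 ratios of -0.14 for Il1a and -0.92 for Il1rn in Cd9+ over Cd9- macrophages, and -1.41 for Il33 in Pi16-high over Pi16-low fibroblasts. The other 3 fell to 0 UMIs: Il1b in LFD Cd9+ against Cd9- macrophages (also without the highest barcodes), and in the monocyte-marker group against macrophages Il1rn on LFD and Il1rl1 on HFD. For 25 ratios of pathway list genes, also rechecked after the data were seen, only these limits and leaving out the highest barcode were run. The limits took 8 of them across 2-fold, 2 in the other direction (log2 0.33 for Cxcl2 in T cells and 1.08 for Ptgs2 in the monocyte-marker group), and the highest barcode 1 (Cxcl2 in Pi16-low fibroblasts, -0.09).

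No paired analysis was possible because each diet had 1 library. Depth limits Il1a, Il1r2 and Il1rap most, and classes under 100 barcodes throughout. With 1 library per diet, intervals leave out differences between animals.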

Other observations

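Outside the classes, the 112 LFD and 109 HFD barcodes that met no rule of any class or marker group held 75 and 183 Il1b UMIs (385 and 704 CPM), at median depths of 929 and 1033 UMIs. They also held 14 Il1rn UMIs in each library.

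The barcodes that met several class rules, 19 on LFD and 28 on HFD, had medians of 19487 and 16074 UMIs and were marked by Scrublet in 12 and 20 cases. They held 91 and 99 Il1b UMIs, 6 and 24 Il1r1 UMIs, and 3 and 18 Nlrp3 UMIs.

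Among the 12 LFD and 4 HFD B cell barcodes, 3 Casp1 UMIs were found on LFD and 0 UMIs of Il1b or Il1rn in either library. The 5 LFD mesothelial barcodes held 6 Il1r1 UMIs (97.2 CPM, beside 95.6 CPM in LFD fibroblasts) and 1 Il33 UMI.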
